A study of Rattus norvegicus with 12 samples.

Results

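The genes described here are those of the unfolded protein response and the integrated stress response in ventricular cardiomyocytes of newborn rats. A list of 36 gene names was matched to the gene names printed with the array probes, leaving out control spots. It found 33 names on 39 probes, of 30367 probes on the array, and all 33 were among the 16418 genes tested. Ero1a was found under its older name Ero1l, while Edem1 and Sesn2 matched no probe by name. By role, 14 were ER chaperones and folding enzymes, 2 belonged to ER-associated degradation, 2 were transcription factors of the unfolded protein response, 4 were transcription factors of the integrated stress response and 11 were targets of ATF4.

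Proteins that misfold in the endoplasmic reticulum (ER) activate sensors in its membrane. Through ATF6 and the spliced form of XBP1 they raise ER chaperones, and through the kinase PERK they lead to phosphorylation of the translation factor eIF2alpha, which slows general translation while ATF4 is translated more. Other eIF2alpha kinases respond to amino acid shortage or haem deficiency and also lead to ATF4, so this integrated stress response can run with or without ER stress. In heart muscle cells both arms are known from ischaemia, pressure load and secretory load.

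Cultured ventricular cardiomyocytes either stayed unstretched or underwent biaxial pulsatile stretch, in which the membrane was lengthened by 20%, over 2, 6 or 24 h. Before stretch they had been kept for 24 h with 10% serum, and they grew on silicone membranes coated with collagen type I. No strain, sex or genetic change is named for the rats. Each of the 4 groups had 3 cultures, 1 per Cy3-labelled Agilent array, and nothing given says whether these came from separate cell isolations, so errors and p-values describe the spread between cultures. All stretch times are set against 1 shared set of 3 control cultures, and the time those spent in culture is not given.

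The level of a probe is the log2 of its processed intensity over the 75th percentile of its array, so a level of 0 is that percentile. This percentile lay between 1138 and 1672 intensity units on the 12 arrays, 64.7% to 70.6% of spots were well above background and 0 were saturated. Pearson's r between arrays of a group was 0.9961 to 0.9983 across genes. The arrays lay on 2 slides, with 8 arrays on slide 1 (control, 2 h, and 6 h replicates 1 and 2) and 4 on slide 2 (6 h replicate 3 and all of 24 h), so the 24 h to control difference also crosses slides. All 15 cardiomyocyte markers tested were well above background on every array. A gene is called where limma's adjusted p was under 0.05.

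Promoter sequences are shown because elements known to bind the ER stress factors and ATF4 are a property of these genes that does not depend on the arrays. RefSeq promoter sequences on build GRCr8, from 250 bases before to 50 bases after the start site, were at hand for 28 of the 33 genes, all but Atf6, Ero1a, Manf, Pdia3 and Pdia6. The ER stress element (ERSE), bound by ATF6 with NF-Y, was searched on both strands as CCAAT and CCACG separated by 9 bases. It stood in 6 of 10 chaperone promoters and in that of Xbp1, and in 0 of 11 promoters of ATF4 targets, while 22 of 33469 promoters of the whole table (0.0657%) held it. The following stretches are written along the strand of the motif, with the fixed letters of the motif in capitals.
Hspa5, chr3:38452958-38453006, plus strand: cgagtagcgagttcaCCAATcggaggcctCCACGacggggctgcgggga
Hsp90b1, distal match, chr7:23012436-23012484, minus strand: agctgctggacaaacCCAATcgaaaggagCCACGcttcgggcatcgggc
Hsp90b1, proximal match, chr7:23012332-23012380, plus strand: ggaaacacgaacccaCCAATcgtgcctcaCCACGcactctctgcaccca
Calr, chr19:40213120-40213168, minus strand: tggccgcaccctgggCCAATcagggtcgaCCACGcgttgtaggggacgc
Canx, chr10:35158054-35158102, minus strand: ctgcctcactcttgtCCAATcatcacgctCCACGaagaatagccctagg
Creld2, chr7:121789224-121789272, minus strand: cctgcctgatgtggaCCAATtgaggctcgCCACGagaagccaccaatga
Dnajc3, chr15:102432519-102432567, plus strand: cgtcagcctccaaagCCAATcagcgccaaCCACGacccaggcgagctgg
Xbp1, chr14:84604543-84604591, plus strand: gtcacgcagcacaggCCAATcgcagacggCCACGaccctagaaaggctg
The matches lay between 232 and 25 bases before the start sites, with that of Hspa5 nearest.

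A shorter form, ERSE-II, which has ATTGG and CCACG 1 base apart, stood in the promoters of Dnajb11 and Herpud1, against 0.0508% of all promoters.
Dnajb11, chr11:91672785-91672825, minus strand: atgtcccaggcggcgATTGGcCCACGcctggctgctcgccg
Herpud1, chr19:10614806-10614846, minus strand: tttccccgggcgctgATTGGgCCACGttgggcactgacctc
The C/EBP-ATF response element (CARE), to which ATF4 binds with a C/EBP partner, was searched as TGATGNAAN. It stood in 3 of 11 promoters of ATF4 targets and in that of Herpud1, and 3.97% of all promoters held it.
Trib3, chr3:161275532-161275570, plus strand: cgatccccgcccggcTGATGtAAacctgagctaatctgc
Chac1, chr3:126795948-126795986, minus strand: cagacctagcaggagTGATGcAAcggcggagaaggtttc
Slc7a1, chr12:11664443-11664481, plus strand: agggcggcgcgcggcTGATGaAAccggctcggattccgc
Herpud1, chr19:10614869-10614907, plus strand: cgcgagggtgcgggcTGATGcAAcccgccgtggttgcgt
Herpud1 was the only member of the 28 with a match to both an ER stress element and the ATF4 element. The core of the unfolded protein response element, TGACGTGG, matched in 0 of 28 member promoters and in 0.595% of all promoters. A match describes letters only, and known ATF4 sites outside these 300 bases or with other letters are not counted.

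**Figure D1:**
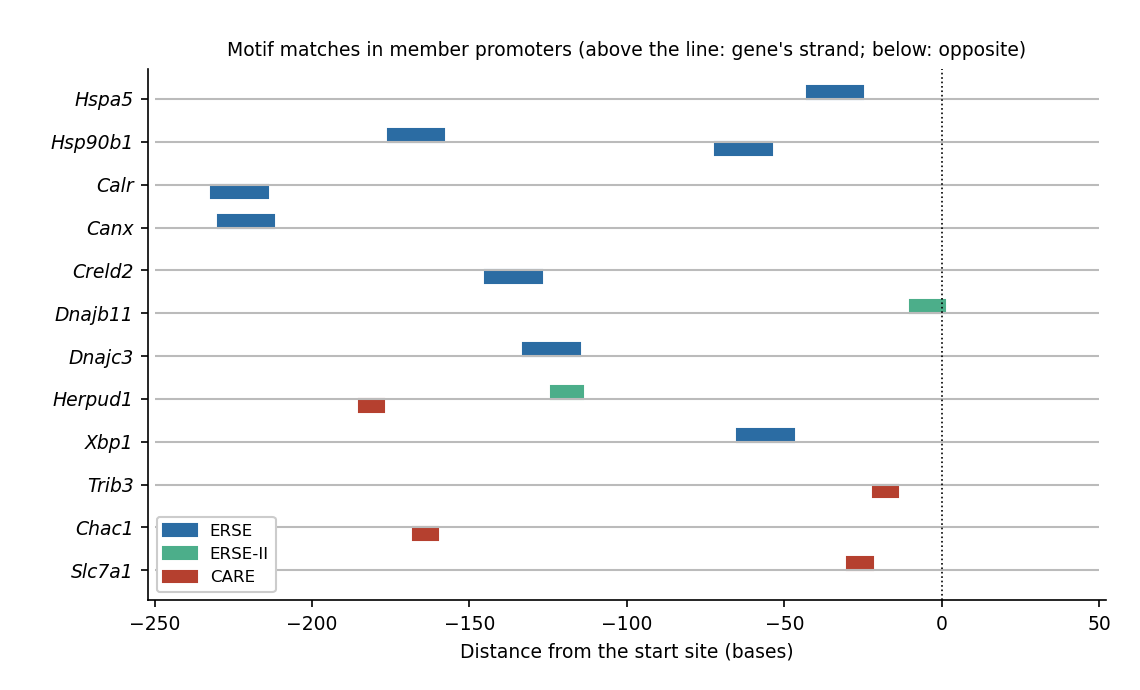
Positions of the motif matches in the 12 member promoters that held one, in bases from the start site (dotted line), with boxes above the grey line for matches on the strand of the gene and below it for the opposite strand. The ERSE matches (blue) belong to chaperones and Xbp1, and the CARE matches (red) to Trib3, Chac1, Slc7a1 and Herpud1.

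At 24 h, Atf4, 6 of its 11 targets and 2 of 14 ER chaperones were called higher, beside 14.6% of all genes. Of the same lists, 1 target (Trib3) and 1 chaperone (Pdia6) were called lower, beside 30.8% of all genes. With the slide in the fit 3 of the targets stayed called higher, and the chaperone counts at 6 h depended on the scaling. After 2 h, 3 members rose (Herpud1, Ppp1r15a and Slc7a1) and 1 fell (Trib3), where 2.61% of all genes were called higher and 5.17% lower. After 6 h, Atf4 and Mthfd2 joined the rising ones, for 5 higher and 1 lower, with 4.18% and 10.1% of all genes. After 24 h, 11 members were higher and 4 lower, with 14.6% and 30.8% of all genes. Counted without direction, the 15 of 33 members called at 24 h stand beside 45.4% of all genes, so the share called does not set the members apart. The direction of the smaller group depended on the scaling. The split at 24 h was 12 higher and 2 lower with quantile normalization, and 16 and 0 with array median scaling. It was 14 and 0 with scaling by spike-in spots. Of all genes, 40.5%, 50.7% and 32% were called in these fits. At 6 h, spike-in scaling, under which the median log2 change of all genes was 0.41 in place of -0.05, gave 19 higher and 0 lower. That fit called 36.7% of all genes.

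**Figure D2:**
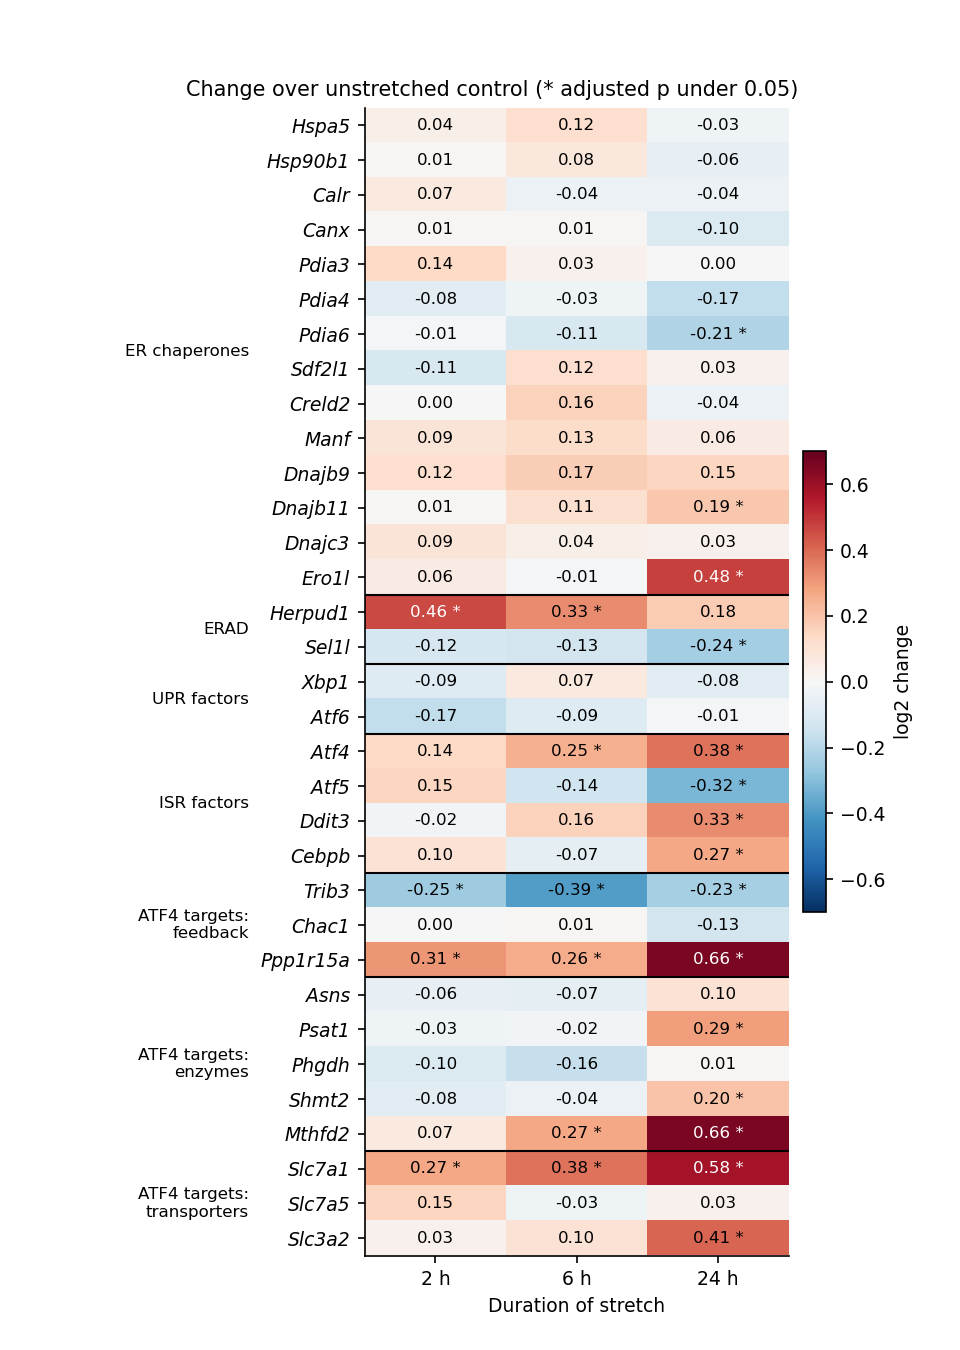
log2 change of each of the 33 members over unstretched control after 2, 6 and 24 h of stretch (columns), by role (rows), in colour and in numbers, with a star where limma's adjusted p was under 0.05. The chaperone rows stay pale except Ero1l at 24 h, and the lower rows of the ATF4 arm darken towards 24 h, led by Ppp1r15a and Mthfd2 at 0.66.

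Among the 14 chaperones and folding enzymes, 0 passed limma's test at 2 h or at 6 h, beside 7.78% and 14.3% of all genes. At an unadjusted p under 0.05 there were 0 at 2 h and 1 at 6 h (Dnajb9). The count at 2 h was also 0 under every other scaling tried. At 6 h it was 1 with quantile and with array median scaling (Dnajb9). With spike-in scaling it was 10 at 6 h, all higher and Hspa5 and Hsp90b1 among them. Of all genes, 12.6%, 15.9% and 36.7% were called at 6 h in these fits. Their median log2 change was 0.03 at 2 h and 0.06 at 6 h, against 0.00 and -0.05 for all genes. At 24 h the median was -0.01, against -0.09 for all genes. At that time 2 were called higher and 1 lower, beside 14.6% and 30.8% of all genes. With the slide in the fit, Ero1l stayed called higher (0.44) and Pdia6 lower (-0.40). The changes of the others then lay between -0.39 (Creld2) and 0.09 (Dnajb9 and Dnajb11), none called. All of these others except Dnajb9 and Dnajb11 were negative. The slide term rests on the 6 h arrays alone. For each of the 14, 6 h replicate 3 on slide 2 stood above the mean of replicates 1 and 2. The offset ran from 0.03 (Canx) to 0.35 (Creld2) and was 0.19 for Pdia6. The fit subtracts it from all 14 changes, so their shared shift downwards rests on that 1 array.

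Hspa5 encodes BiP, the main ER chaperone and the usual readout of the unfolded protein response. Its probe lies at chr3:13787739-13787798 on build rn4, the build of the array files. Its level was 5.06, 4.99 and 4.97 in control cultures, 5.10, 4.95 and 5.10 after 2 h, 5.18, 4.99 and 5.19 after 6 h, and 5.0, 4.92 and 5.01 after 24 h. Every stretch group overlapped the control. The log2 change at 24 h was -0.03 (95% interval -0.18 to 0.12, adjusted p = 0.757 by limma), or 0.885-fold to 1.09-fold in the fit without the slide. With the slide in the fit it was -0.13 ± 0.12 (SE, adjusted p = 0.515 by limma). The interval does not cover the choice of scaling. At 6 h the change was 0.12 (interval -0.03 to 0.26, adjusted p = 0.275). The 100 bases before its start site, with the ERSE described above, end in an A- and T-rich run.
Hspa5, chr3:38452916-38453015, plus strand: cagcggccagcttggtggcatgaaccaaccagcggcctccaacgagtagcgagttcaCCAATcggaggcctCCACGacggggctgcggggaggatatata

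Hsp90b1, the ER form of HSP90, carried the ERSE in both orientations and stood at 2.81, 2.64 and 2.71 in control cultures, 2.67, 2.75 and 2.76 after 2 h, 2.88, 2.57 and 2.95 after 6 h, and 2.72, 2.56 and 2.70 after 24 h. The 6 h arrays spread more widely than any other group, with the second replicate below all control arrays and the others above them. Its change was 0.08 at 6 h (interval -0.12 to 0.29) and -0.06 at 24 h (interval -0.26 to 0.15), and neither was called. The lectin chaperones Calr and Canx, which hold glycoproteins until they fold, changed by -0.04 and -0.10 at 24 h, and the disulphide isomerases Pdia3 and Pdia4 by 0.00 and -0.17. Sdf2l1, a partner of BiP, Creld2 and Manf, both ER stress-inducible secreted or luminal proteins, and the J-domain co-chaperones Dnajb9 and Dnajc3 lay between -0.04 and 0.15 at 24 h, none called.

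The chaperones moved together between the cultures of the 6 h group. Its replicate 2 was the lowest of the 3 arrays for 14 of 14 chaperones, whereas it was the lowest for 31.3% of all genes tested. Creld2, for example, had 0.94, 0.62 and 1.14 in the 6 h arrays, against 0.78, 0.71 and 0.73 in control arrays. Replicate 3 of 6 h, the array on slide 2, was the highest for 9 of 14 chaperones and in 9 of 11 ATF4 targets, against 37.5% of all genes. In the 24 h group replicate 2 was again lowest for 10 of 14 chaperones, with 43.5% of all genes. It was lowest for 7 of 14 in the control group and 8 of 14 at 2 h, with 32.7% and 39.8% of all genes. Without replicate 2 of 6 h, the median chaperone change at 6 h was 0.15 in place of 0.06, and 1 of 14 was called (Creld2, adjusted p = 0.0431 by limma). Without replicate 1 or 3 the median was 0.02 or 0.01 and 0 were called.

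Ero1l, the oxidase that recharges protein disulphide isomerase and is induced by CHOP and by hypoxia, had the largest change of the 14 at 24 h. Its level was 0.80, 0.76 and 0.73 in control cultures, 0.80, 0.78 and 0.87 after 2 h, 0.77, 0.71 and 0.78 after 6 h, and 1.22, 1.25 and 1.25 after 24 h. The 3 arrays at 24 h stood above all 9 others, and the others overlapped. The rise at 24 h was 0.48 ± 0.04 on the log2 scale (SE, n = 3 cultures per group), or 1.39-fold, with an adjusted p of 1.75e-05 by limma. It was also called against 6 h, by 0.48 (adjusted p = 4.25e-05).

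Dnajb11, an ER co-chaperone of BiP, stood at 1.52, 1.37 and 1.46 in control cultures, 1.41, 1.47 and 1.49 after 2 h, 1.64, 1.41 and 1.63 after 6 h, and 1.61, 1.61 and 1.69 after 24 h. The 24 h arrays lay above the control and the others overlapped it. The rise at 24 h was 0.19 ± 0.07 (adjusted p = 0.0406 by limma), and this call was lost in 8 of 22 alternatives, among them leaving out any 1 array of 24 h, control replicate 2 or 3, or 2 h replicate 3. With the slide in the fit it was 0.09 and was no longer called (adjusted p = 0.689). Pdia6, a disulphide isomerase, stood at 4.09, 4.19 and 4.14 in control cultures, 4.10, 4.13 and 4.15 after 2 h, 4.03, 3.90 and 4.16 after 6 h, and 3.95, 3.87 and 3.97 after 24 h. Only the 24 h group lay wholly below the control. At 24 h it fell by 0.21 on the log2 scale (adjusted p = 0.0225 by limma). The change was -0.40 and called with the slide in the fit (adjusted p = 0.027), -0.18 with quantile normalization (adjusted p = 0.0794), -0.01 with array median scaling (adjusted p = 0.898) and 0.20 with spike-in scaling (adjusted p = 0.407). This call was also lost without control replicate 2 or 3, without 24 h replicate 2 and with no filter.

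In ER-associated degradation, Herpud1 was called at 2 h and 6 h. HERP, its product, is a membrane protein that organises the retrotranslocation machinery. Its level was 3.06, 3.13 and 3.05 in control cultures, 3.62, 3.39 and 3.63 after 2 h, 3.49, 3.34 and 3.41 after 6 h, and 3.32, 3.16 and 3.31 after 24 h. All 9 stretched arrays lay above all 3 control arrays, and the levels were highest at 2 h. The rise was 0.46 ± 0.07 at 2 h (adjusted p = 0.00675 by limma) and 0.33 ± 0.07 at 6 h (adjusted p = 0.0152), and at 24 h the change of 0.18 missed the threshold (adjusted p = 0.0674). The call at 2 h was lost only with spike-in scaling, and that at 6 h was lost on slide 1 alone, without control replicate 3 and without 6 h replicate 1. The differences of -0.13 between 6 h and 2 h and -0.15 between 24 h and 6 h were not called. The 200 bases before its start site hold the CARE, here read on the opposite strand and so shown reversed, and the ERSE-II further downstream.
Herpud1, chr19:10614708-10614907, minus strand: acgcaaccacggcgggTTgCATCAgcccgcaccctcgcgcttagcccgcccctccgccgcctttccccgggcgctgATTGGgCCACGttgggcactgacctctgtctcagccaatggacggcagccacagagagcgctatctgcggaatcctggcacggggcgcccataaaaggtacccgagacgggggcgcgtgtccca
Sel1l, the scaffold of the HRD1 ubiquitin ligase, stood at -2.14, -2.07 and -1.97 in control cultures, -2.25, -2.11 and -2.19 after 2 h, -2.21, -2.17 and -2.17 after 6 h, and -2.19, -2.38 and -2.33 after 24 h. The 6 h and 24 h arrays lay below every control array. At 24 h it fell by 0.24 (adjusted p = 0.0122 by limma), but the call was lost with quantile normalization (-0.10), with array median scaling (-0.04) and with the slide in the fit (-0.26), and a second probe, dimmer and fitted apart, changed by -0.09.

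The factors that drive the chaperone arm were not called at any time. Xbp1 stood at 1.30, 1.31 and 1.30 in control cultures, 1.36, 1.01 and 1.28 after 2 h, 1.41, 1.39 and 1.31 after 6 h, and 1.19, 1.28 and 1.21 after 24 h. One 2 h array was low and the others lay close to the controls. Its log2 changes were -0.09, 0.07 and -0.08 (adjusted p between 0.443 and 0.621). The array does not tell the spliced from the unspliced transcript. Atf6 stood at -0.46, -0.27 and -0.44 in control cultures, -0.50, -0.70 and -0.49 after 2 h, -0.53, -0.41 and -0.51 after 6 h, and -0.36, -0.37 and -0.48 after 24 h. Its 2 h arrays lay below all control arrays, yet the change of -0.17 did not pass (adjusted p = 0.193), and at 24 h it was -0.01 (interval -0.18 to 0.15).

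**Figure D3:**
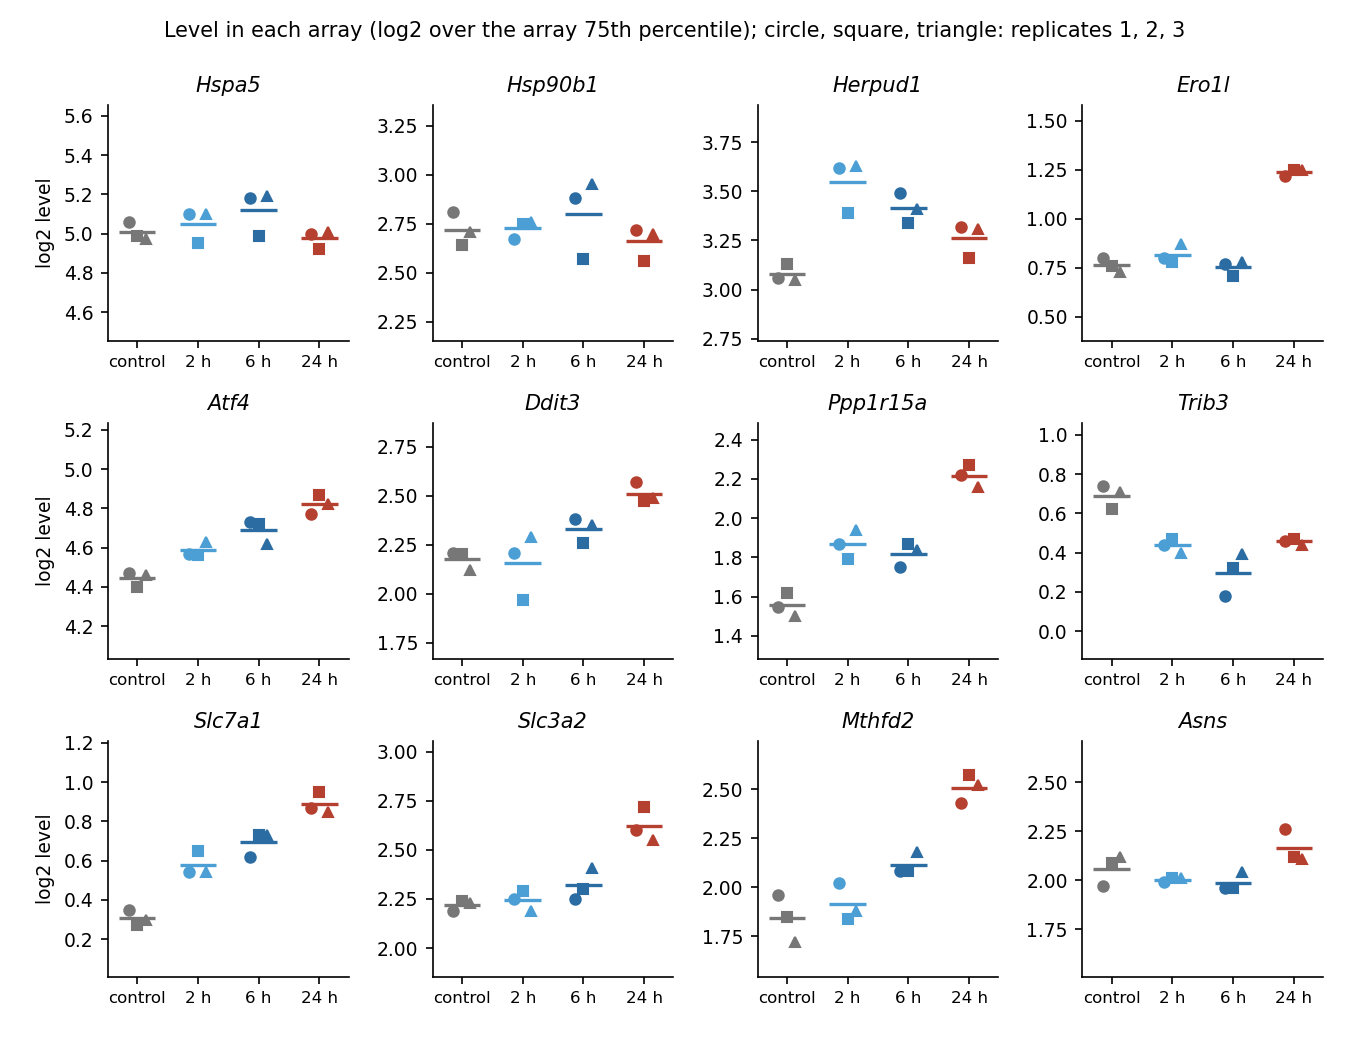
Level of 12 members in each of the 12 arrays, as log2 of the processed intensity over the 75th percentile of the array, by group from control to 24 h. Symbols mark replicates 1, 2 and 3, lines mark group means, and every panel spans 1.2 log2 units. Hspa5 and Hsp90b1 overlap the control at all times, Herpud1 is highest at 2 h, the means of Atf4 and Slc7a1 are highest at 24 h, and Ero1l stands apart only at 24 h.

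Of the 4 transcription factors of the integrated stress response, 3 rose and 1 fell at 24 h, where 14.6% of all genes were called higher and 30.8% lower. Atf4, the central factor of this response, is controlled mainly at translation but also by transcript level. Its level was 4.47, 4.40 and 4.46 in control cultures, 4.57, 4.56 and 4.63 after 2 h, 4.73, 4.72 and 4.62 after 6 h, and 4.77, 4.87 and 4.82 after 24 h. All stretched arrays were above all control arrays, and all 24 h arrays were above the rest. The log2 change was 0.14 ± 0.05 at 2 h (adjusted p = 0.0972 by limma), 0.25 ± 0.05 at 6 h (adjusted p = 0.00772) and 0.38 ± 0.05 at 24 h (adjusted p = 0.000147), the last a 1.30-fold rise. Neither step between times was called (0.11 with adjusted p = 0.183, and 0.13 with adjusted p = 0.0781). The probe lies at chr7:118538840-118538899 on rn4.

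Ddit3, which encodes the pro-apoptotic factor CHOP, was called at 24 h and not at 2 h or 6 h. Its level was 2.21, 2.20 and 2.12 in control cultures, 2.21, 1.97 and 2.29 after 2 h, 2.38, 2.26 and 2.35 after 6 h, and 2.57, 2.47 and 2.49 after 24 h. The 6 h and 24 h arrays lay above every control array, whereas the 2 h arrays straddled them. The rise at 24 h was 0.33 ± 0.08 or 1.26-fold (adjusted p = 0.00549 by limma), with 0.30 and no call when the slide was in the fit (adjusted p = 0.21).

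Cebpb, a partner of ATF4 and CHOP that also answers cytokines, stood at 1.92, 1.89 and 1.78 in control cultures, 2.12, 1.75 and 2.03 after 2 h, 1.78, 1.79 and 1.82 after 6 h, and 2.01, 2.24 and 2.16 after 24 h. The 24 h arrays lay above the control, whereas the 2 h arrays straddled it. At 24 h it rose by 0.27 ± 0.09 (adjusted p = 0.0336 by limma). That call was lost in 8 of 22 alternatives, among them leaving out replicate 2 or 3 of control or of 24 h, and did not hold with the slide in the fit (0.24, adjusted p = 0.415). Atf5, a related factor whose translation is also raised by eIF2alpha phosphorylation, went the other way, with 1.87, 1.98 and 2.00 in control cultures, 2.23, 2.04 and 2.05 after 2 h, 1.77, 1.74 and 1.94 after 6 h, and 1.68, 1.46 and 1.76 after 24 h. The 2 h arrays lay above every control array and the 24 h arrays below. At 24 h it fell by 0.32 (adjusted p = 0.0142 by limma). The value was -0.50 with the slide in the fit (adjusted p = 0.062), -0.12 with array median scaling (adjusted p = 0.282) and 0.09 with spike-in scaling. The change of 0.15 at 2 h was not called.

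The ATF4 targets comprise regulators, enzymes and transporters. Of 11 targets, 2 were higher and 1 lower at 2 h, 3 and 1 at 6 h, and 6 and 1 at 24 h. Of all genes, 2.61% were higher and 5.17% lower at 2 h, 4.18% and 10.1% at 6 h, and 14.6% and 30.8% at 24 h. The median log2 change of the 11 was 0.00 at 2 h, -0.02 at 6 h and 0.20 at 24 h, and that of all genes at 24 h was -0.09. At 24 h the same 6 were called higher under every scaling tried, array median scaling adding Asns and Phgdh and spike-in scaling adding Asns. With the slide in the fit 3 were called higher (Mthfd2, Ppp1r15a and Slc7a1) and 1 lower (Trib3), and 12.2% of all genes were called in either direction in that fit. Whether the ATF4 targets and the chaperones differ as lists was not tested.

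**Figure D4:**
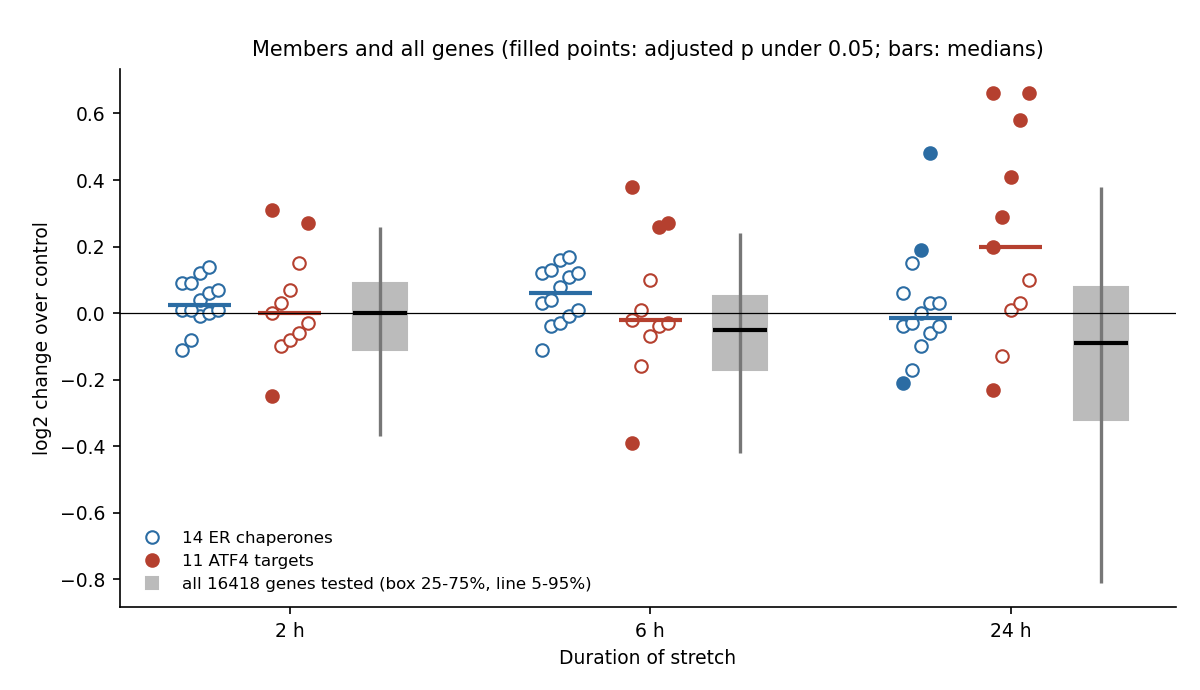
log2 change over control of the 14 ER chaperones (blue) and the 11 ATF4 targets (red) after 2, 6 and 24 h of stretch, with medians as bars and filled points where limma's adjusted p was under 0.05. Grey boxes and lines give the middle 50% and 90% of all 16418 genes tested. At 24 h the ATF4 targets have a median of 0.20 and the chaperones one of -0.01, and the spread of all genes is wider than at 2 h.

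Among the regulators, Ppp1r15a rose at every time. Its product GADD34 guides a phosphatase to eIF2alpha and so ends the translation block. Its level was 1.55, 1.62 and 1.50 in control cultures, 1.87, 1.79 and 1.94 after 2 h, 1.75, 1.87 and 1.84 after 6 h, and 2.22, 2.27 and 2.16 after 24 h. The 2 h and 6 h arrays overlapped each other above the control, and the 24 h arrays were above all others. The rise was 0.31 ± 0.06 at 2 h (adjusted p = 0.0122 by limma), 0.26 ± 0.06 at 6 h (adjusted p = 0.0144) and 0.66 ± 0.06 at 24 h (1.58-fold, adjusted p = 1.28e-05). The call at 6 h was lost on slide 1 alone, without control replicate 3 and without 6 h replicate 2. The probe lies at chr1:95994055-95994114 on rn4.

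Trib3, a pseudokinase that ATF4 and CHOP induce and that restrains ATF4 in return, fell. Its level was 0.74, 0.62 and 0.71 in control cultures, 0.44, 0.47 and 0.40 after 2 h, 0.18, 0.32 and 0.39 after 6 h, and 0.46, 0.47 and 0.44 after 24 h. All 9 stretched arrays were below all 3 control arrays. It fell by 0.25 at 2 h (adjusted p = 0.0279 by limma), by 0.39 at 6 h (adjusted p = 0.00255) and by 0.23 at 24 h (adjusted p = 0.00825). The call at 2 h was lost in 10 of 23 alternatives, among them leaving out replicate 1 or 3 of control or of 2 h. With array median scaling the changes were -0.21 (adjusted p = 0.057), -0.29 (adjusted p = 0.00979) and -0.04 (adjusted p = 0.638), and spike-in scaling gave 0.07 at 6 h and 0.17 at 24 h, not called. Its promoter held a CARE 22 to 14 bases before the start site. Chac1, a glutathione-degrading enzyme and a target of ATF4 with ATF3, did not pass at any time and had a change of -0.13 at 24 h (interval -0.29 to 0.03).

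Of the 5 amino acid and one-carbon enzymes, 0 were called by limma at 2 h (0 also at an unadjusted p under 0.05). At 6 h 1 was higher and at 24 h 3 were higher. Of all genes, 2.61%, 4.18% and 14.6% were called higher at 2, 6 and 24 h. Mthfd2, the mitochondrial folate enzyme, stood at 1.96, 1.85 and 1.72 in control cultures, 2.02, 1.84 and 1.88 after 2 h, 2.08, 2.08 and 2.18 after 6 h, and 2.43, 2.57 and 2.52 after 24 h. The 2 h arrays overlapped the control, the 6 h arrays lay above both, and the 24 h arrays above all. The rise was 0.27 ± 0.07 at 6 h (adjusted p = 0.0309 by limma) and 0.66 ± 0.07 at 24 h (1.58-fold, adjusted p = 5.26e-05). The call at 6 h was lost in 10 of 23 alternatives, among them the slide in the fit and leaving out any 1 array of 6 h or control replicate 2 or 3. A pair of further probes of Mthfd2, fitted apart, rose by 0.42 and 0.59 at 24 h, and at 6 h they changed by 0.16 (adjusted p = 0.224) and 0.26 (adjusted p = 0.0469).

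Psat1, of serine synthesis, stood at 1.87, 1.98 and 1.83 in control cultures, 1.87, 1.80 and 1.93 after 2 h, 1.85, 1.79 and 1.99 after 6 h, and 2.21, 2.14 and 2.22 after 24 h. The rise at 24 h was 0.29 ± 0.06 (adjusted p = 0.00415 by limma). Shmt2, which passes serine carbon to mitochondrial folate, stood at 0.97, 1.06 and 1.14 in control cultures, 0.99, 0.96 and 0.97 after 2 h, 1.00, 0.99 and 1.04 after 6 h, and 1.26, 1.19 and 1.33 after 24 h. Its rise at 24 h was 0.20 ± 0.05 (adjusted p = 0.0105 by limma). For both, the 24 h arrays lay above all others, and neither rise was called with the slide in the fit (0.12 and 0.16).

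Asns, the asparagine synthetase that is often used as the standard ATF4 target, stood at 1.97, 2.09 and 2.12 in control cultures, 1.99, 2.01 and 2.01 after 2 h, 1.96, 1.96 and 2.04 after 6 h, and 2.26, 2.12 and 2.11 after 24 h. The 24 h arrays overlapped the control at the edge. Its change at 24 h was 0.10 (interval -0.02 to 0.23, adjusted p = 0.158 by limma), and against 6 h the difference of 0.17 just passed (adjusted p = 0.0494), a call lost in 19 of 22 alternatives. Phgdh, which starts serine synthesis, had a change of 0.01 at 24 h (interval -0.13 to 0.14).

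Of the 3 amino acid transporters, Slc7a1, which imports arginine and lysine, rose at every time. Its level was 0.35, 0.27 and 0.30 in control cultures, 0.54, 0.65 and 0.54 after 2 h, 0.62, 0.73 and 0.73 after 6 h, and 0.87, 0.95 and 0.85 after 24 h. All stretched arrays lay above the control and the 24 h arrays above the rest. The rise was 0.27 ± 0.05 at 2 h (adjusted p = 0.0154 by limma), 0.38 ± 0.05 at 6 h (adjusted p = 0.0018) and 0.58 ± 0.05 at 24 h (1.50-fold, adjusted p = 1.85e-05). The call at 2 h was lost in 5 of 23 alternatives, among them leaving out control replicate 2 and the mean of all kept probes. A second, much dimmer probe of Slc7a1 changed by 0.26 at 24 h, which did not pass in the fit of all probes (adjusted p = 0.182).

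Slc3a2, the heavy chain shared by several transporters, stood at 2.19, 2.24 and 2.23 in control cultures, 2.25, 2.29 and 2.19 after 2 h, 2.25, 2.30 and 2.41 after 6 h, and 2.60, 2.72 and 2.55 after 24 h. The 24 h arrays lay above all others, and the rise at 24 h was 0.41 ± 0.06 or 1.32-fold (adjusted p = 0.000344 by limma), with 0.27 and no call when the slide was in the fit (adjusted p = 0.109). Slc7a5, its light-chain partner for large neutral amino acids, had -2.09, -2.36 and -2.25 after 24 h, against -2.10, -2.30 and -2.40 in control cultures, and a change of 0.03 (interval -0.21 to 0.27).

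Neighbouring times were also compared. For 6 h against 2 h, 0 members were called by limma (5 at an unadjusted p under 0.05), where 2.87% of all genes were called higher and 5.64% lower. For 24 h against 6 h, 9 members were higher and 0 lower, with 8.46% and 14% of all genes. Of these, 7 were ATF4 targets (Ppp1r15a, Asns, Psat1, Shmt2, Mthfd2, Slc7a1 and Slc3a2) and the others were Ero1l and Cebpb. The calls of Asns, Slc7a1 and Cebpb were lost in 19, 8 and 7 of 22 alternatives. With the slide in the fit 2 remained, Ero1l (0.46, adjusted p = 0.00343) and Ppp1r15a (0.38, adjusted p = 0.03). That fit called 6.14% of all genes. On slide 2 alone, where the single 6 h array gives no test, the 24 h mean exceeded it by 0.46 for Ero1l, 0.38 for Ppp1r15a, 0.33 for Mthfd2, 0.21 for Slc3a2 and 0.12 for Asns. Over all 4 groups, limma's F test called 13 of 33 members, beside 49.7% of all genes, and 1 of the 14 chaperones was among them (Ero1l).

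**Figure D5:**
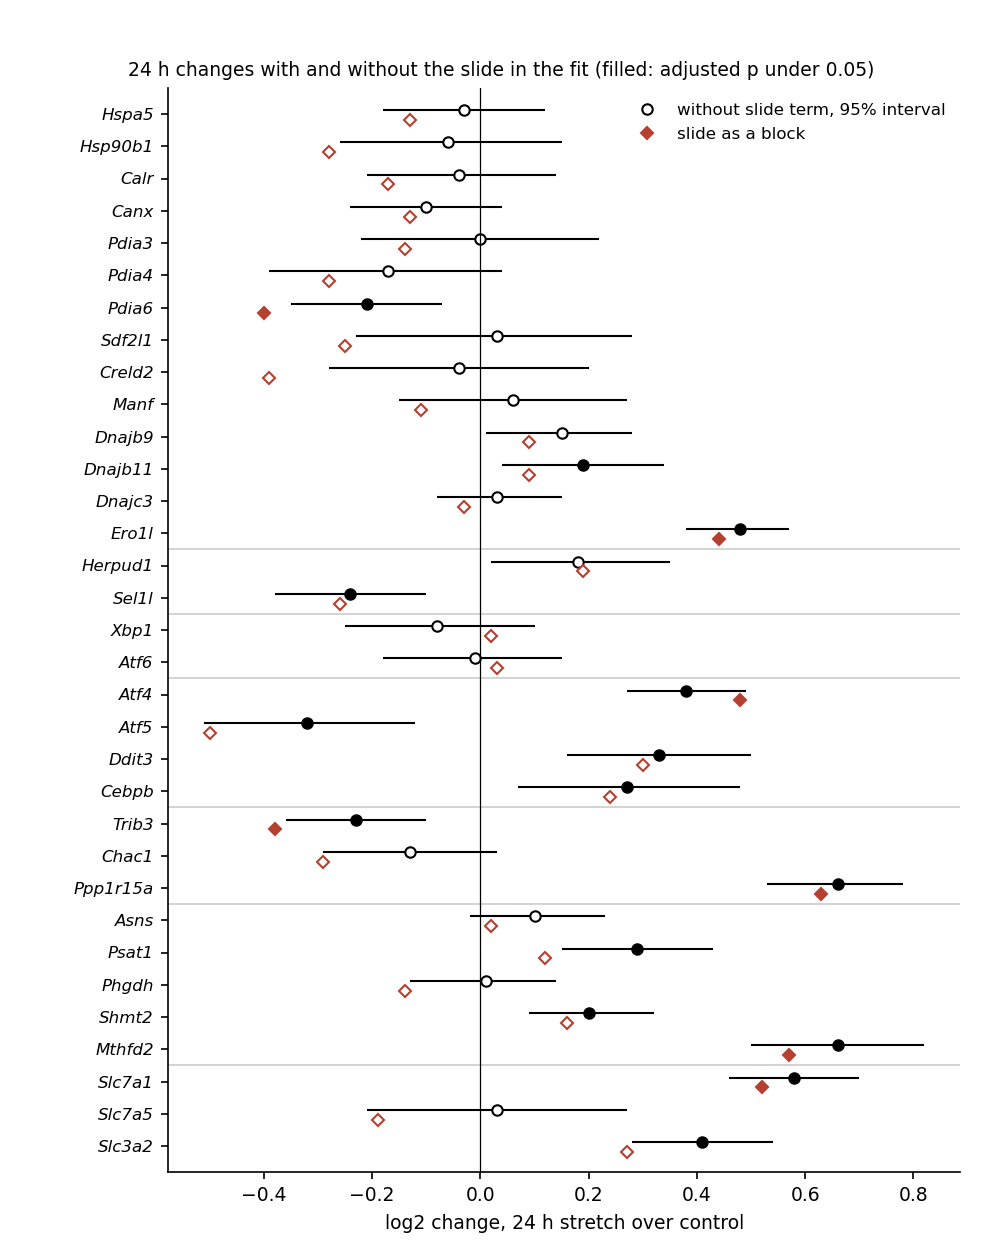
log2 change of the 33 members at 24 h over control, by limma without a slide term (black, with the 95% interval) and with the slide as a block (red diamonds), filled where the adjusted p was under 0.05. With the slide as a block 7 members stay called, of which Atf4, Ero1l, Ppp1r15a, Mthfd2 and Slc7a1 are higher and Pdia6 and Trib3 lower. That fit calls 12.2% of all genes.

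Other genes of the same pathways were taken from 3 lists with 91 genes tested. Their changes were not checked under the other scalings or with the slide in the fit. Of 17 stress sensors and regulators of eIF2alpha, 1 was higher and 2 lower at 2 h, 1 and 2 at 6 h, and 4 and 3 at 24 h. The 7 of 17 called at 24 h stand beside 45.4% of all genes. Eif2ak3, which encodes the ER sensor kinase PERK, fell by 0.33 at 2 h (adjusted p = 0.00297 by limma), and its 2 h levels of -2.29, -2.33 and -2.33 lay below the -2.02, -1.94 and -2.02 of control cultures. Eif2ak4, the amino acid sensor GCN2, fell by 0.32 at 2 h and by 0.19 at 6 h. Eif2b1, a subunit of the exchange factor for eIF2, rose by 0.22 at 2 h and by 0.18 at 6 h. Wfs1, an ER membrane protein, fell by 0.29 at 6 h and by 0.32 at 24 h, when Eif2b3 rose by 0.31 and Mbtps1, the protease that cleaves ATF6, fell by 0.28.

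Of 35 further genes of ER folding, translocation and degradation, 0 were called by limma at 2 h, 2 were higher and 1 lower at 6 h, and 4 were higher and 10 lower at 24 h, where 14.6% of all genes were higher and 30.8% lower. At 2 h the all-gene shares were 2.61% and 5.17%, and at 6 h 4.18% and 10.1%. Sil1, the nucleotide exchange factor of BiP, fell by 0.31 at 6 h and by 0.44 at 24 h (adjusted p = 0.000396). Os9, a lectin of ER-associated degradation, fell by 0.43 at 24 h, and Creb3, an ER-bound transcription factor, rose by 0.18 at 6 h and by 0.33 at 24 h. Sec61g, a subunit of the translocon, rose by 0.15 at 6 h.

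The 39 further targets of ATF4 and CHOP had 4 higher and 1 lower at 2 h, 7 and 5 at 6 h, and 17 and 5 at 24 h, beside 14.6% of all genes higher and 30.8% lower at 24 h. Their median log2 change at 24 h was 0.18, and that of all genes was -0.09. Atf3, the transcription factor downstream of ATF4, stood at -0.25, -0.34 and -0.24 in control cultures, 0.88, 0.79 and 0.98 after 2 h, 0.71, 0.70 and 0.76 after 6 h, and 1.35, 1.52 and 0.98 after 24 h. It rose by 1.16, 1.00 and 1.56 on the log2 scale (adjusted p of 0.00106, 0.00104 and 4.17e-06 by limma). Hmox1, haem oxygenase, rose by 0.73, 0.84 and 1.42. Gdf15, a stress-induced cytokine, was at 0.34, 0.14 and 0.12 after 24 h, against -1.44, -1.28 and -1.63 in control cultures, a rise of 1.65 (adjusted p = 3.81e-06). Ddit4, an inhibitor of mTORC1, rose by 0.41 at 2 h, and Nupr1, a chromatin-associated stress protein, fell by 0.51 at 6 h. Several of these genes also answer other pathways.

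Markers of other cells moved at 24 h as well. The summed level of 7 macrophage and leukocyte markers (7 of 7 called lower, of 10 listed) was 0.908 to 0.971 times the array percentile at 24 h, against 2.03 to 2.10 in control cultures. The sum of 10 fibroblast markers was 124 to 144 at 24 h, against 172 to 184 in control cultures, with 8 called lower and 0 higher, and that of 8 endothelial markers was 2.30 to 2.63 at 24 h, against 3.15 to 3.35 in control cultures, with 6 called lower and 1 higher. For 8 smooth muscle and pericyte markers it was 30 to 31.7 at 24 h, against 35.9 to 36 in control cultures, with 5 called lower and 1 higher, and for 15 cardiomyocyte markers 964 to 1040, against 1120 to 1180, with 2 called higher and 10 lower. Every marker tested was well above background on all 3 control arrays. The part of cell composition in the 24 h results was not tested, and in RNA from whole cultures fewer cells of a type and less RNA per cell cannot be told apart.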

How the data were processed

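Total RNA of 12 cultures was hybridised to 1-colour Agilent arrays. The authors extracted spots with Agilent Feature Extraction, version 11.0.1.1 per the file headers and version 10.7.3.1 in the notes on processing from the submitters. Per the file headers, the deposited processed signal is a linear, background-subtracted intensity, not scaled across arrays. Mean signal and local background were deposited as raw intensities. The deposited spot flags hold other values, 0 or 1. The deposited series matrix (intensity of 28902 probes) has a scaling that no source used here gives, and it served as an alternative only. Depth in reads does not apply, and the number of arrays limits the precision.

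Processed signals were log2-transformed, outlier spots (224 to 359 of 58717 per array) were left out, spots of a probe were averaged and the 75th percentile of the array was subtracted. Kept were the 18997 of 30367 probes that some group had well above background in its 3 arrays, and the brightest kept probe stood for each gene name. Group means over the 12 arrays were estimated by lmFit and eBayes of limma 3.58.1 under R 4.3.3, and p-values were adjusted by Benjamini-Hochberg over 16418 genes, two-sided. The script was tested on simulated data. Intervals are 95% and not adjusted. The accessions of the probes named the same gene in RefSeq's GRCr8 table except for Manf and Slc7a1, whose accessions were not found there.

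Members and gene lists were chosen with earlier results of these data known. Full values are given for every member called against control and for Hspa5, Hsp90b1, Xbp1, Atf6, Atf4, Ddit3 and Asns. Of each further pathway list, up to 3 called genes with the largest change per time are named. Alternatives were background correction by normexp, quantile, array median and spike-in scaling, the series matrix, no filter, the mean of all probes, 2 groups only, the slide, the replicate number and leaving out each array. Exon and UTR positions of the probes were not analysed here.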

Additional observations from a re-analysis of the deposited data

Results flagged for a closer look

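These members differed between 2 stretch times under the same contrast with control, by limma's test of 24 h against 6 h. Among ATF4 targets the log2 rise was 0.40 for Ppp1r15a (adjusted p = 0.00084), 0.39 for Mthfd2 (0.00339), 0.31 for Psat1 (0.0066), 0.30 for Slc3a2 (0.00485), 0.25 for Shmt2 (0.00845), 0.20 for Slc7a1 (0.0239) and 0.17 for Asns (0.0494), the last lost in 19 of 22 alternatives. Outside that group it was 0.48 for Ero1l (adjusted p = 4.25e-05) and 0.34 for Cebpb (0.0244). All 3 arrays at 24 h were above all 3 at 6 h in each case. The 24 h group lies on slide 2 with 1 of the 3 arrays of 6 h, and Ero1l and Ppp1r15a alone of these 9 stayed called with the slide as a block. With spike-in scaling none of the 9 was called.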

How the results depend on the processing

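Atf4, Ero1l, Mthfd2, Ppp1r15a and Slc7a1 were called at 24 h in all 22 alternatives, and Atf4 and Slc7a1 at 6 h in all 23. With spike-in scaling, under which the median change of all genes was 0.20, 0.41 and 0.31 at 2, 6 and 24 h in place of 0.00, -0.05 and -0.09, members called against control numbered 0 at 2 h and 19 at 6 h, and 0 for 24 h against 6 h. Under it Trib3 turned to 0.07 at 6 h and 0.17 at 24 h, and at 24 h Atf5 to 0.09, Pdia6 to 0.20 and Sel1l to 0.17. The log2 spike-in median was 10.744, 11.139 and 10.766 on the control arrays, and that of control replicate 2 was the highest of the 12 arrays. Scaling by it lowers the levels of that array and so raises every change over control. At 2 h, 2 members were called with no filter and 1 when only the 2 groups were fitted. With slide 1 alone 3 were called at 6 h. With the slide as a block 7 were called at 24 h, 2 for 24 h against 6 h and 6 among the 4 groups, while all genes called at 24 h numbered 1995 in place of 7454. Leaving out 1 array gave 3 to 4 members called at 2 h, 3 to 6 at 6 h (3 without control replicate 3), 11 to 16 at 24 h (11 without control replicate 3), 0 to 1 for 6 h against 2 h, 6 to 10 for 24 h against 6 h (6 without 6 h replicate 1 or without 24 h replicate 2) and 12 to 16 among the groups. Of all genes, 2 h calls were 1277, against 825 with normexp, 516 with no filter, 275 with 2 groups only, 698 with slide 1 alone and 204 with spike-in scaling. At 6 h they were 2343, against 6028 with spike-in scaling, 1556 with the slide as a block, 1230 with slide 1 alone and 1214 with no filter. For 24 h against 6 h they were 3680, against 1097 with spike-in scaling and 1008 with the slide as a block, and among the groups 8161, against 2614 with that block. For 6 h against 2 h they were 1397, and between 112 (slide 1 alone) and 546 with normexp, spike-in scaling, no filter, 2 groups only, the slide as a block or slide 1 alone. Leaving out 1 array moved all-gene calls by over 1.5 times at 2 h (575 and 670 without control replicates 2 and 3, 750 and 844 without 2 h replicates 1 and 3) and at 6 h (1434 and 1409 without control replicates 2 and 3, 1078 and 1556 without 6 h replicates 1 and 3). It did so too for 6 h against 2 h (490 and 790 without 2 h replicates 1 and 2, 182, 718 and 469 without 6 h replicates 1, 2 and 3) and for 24 h against 6 h (2337 without 6 h replicate 2).

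Across all genes, deviations of same-numbered arrays correlated between -0.11 and 0.085 in 18 pairs, and those of differently numbered arrays between -0.186 and 0.2 in 36 pairs. Among the chaperones, however, replicate 2 was the lowest array most often in each of the 4 groups. Whether cultures of the same number belong together is not given. With the replicate block 3, 5 and 14 members were called at 2, 6 and 24 h, 0 and 8 between neighbouring times and 12 among the groups, and no count moved by over 1.5 times.

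Slide and stretch time overlap, so 24 h values rest on 1 shared 6 h array once the slide is fitted. The control has no time in culture given, so time in culture and stretch cannot be told apart. Transcript splicing, ATF4 protein and eIF2alpha phosphorylation were not measured.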

Other observations

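Of the genes outside the list whose promoters held the ERSE, 10 were tested, and those named here were chosen after their values were seen. At 24 h, Zfand2a and Birc5 were called higher and Ankmy2, Foxd4, Pan2 and Ppm1l lower, beside 14.6% and 30.8% of all genes. Birc5 and Pan2 only just passed (adjusted p = 0.0497 and 0.0475 by limma). These genes were not checked under the alternatives. Zfand2a, a zinc-finger protein induced by arsenite, rose by 0.39 at 6 h (adjusted p = 0.0437 by limma) and by 0.71 at 24 h (adjusted p = 0.000569). Derl3, a channel protein of ER-associated degradation, changed by -0.11, 0.00 and -0.04 at 2, 6 and 24 h, none called. A probe named only by a gene-model number carries the RefSeq accession of Sesn2, a stress-induced target of ATF4 that the rule by name does not take in. It stood at -1.69, -1.75 and -1.74 after 24 h, against -1.80, -1.54 and -1.61 in control cultures, a change of -0.08 that was not called.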
